A study of Homo sapiens with 12 samples.

Results

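HuH-7 cells are a human hepatocellular carcinoma line that keeps much of the gene expression of hepatocytes, including the secreted plasma proteins. The study transfected them with a hairpin mimic or a hairpin inhibitor of miR1908-5p, or with the matching Dy547-coupled transfection control of either kind, and repeated the 4 transfections on 3 culture occasions, so that 12 expression arrays were made. All cells were kept in low-glucose medium with serum, and the labels give 72 h of transfection at 9 nM with Lipofectamine RNAiMAX. Described here is how the 4 arrays titled repeat 1 (occasion 1: 1 mimic, 1 mimic control, 1 inhibitor and 1 inhibitor control array) differed from the 4 arrays titled repeat 3 (occasion 3, the same 4 groups), which makes 8 of the 12 arrays. The 4 arrays of repeat 2 (occasion 2) were placed between them. The numbers are names, since the labels do not state the order in time. Each occasion was 1 culture, so the tests set the difference between occasions against the spread between its 4 parallel transfections. The array labels are also numbered in 3 consecutive runs of 4 by occasion, so that culture, RNA isolation and array handling cannot be told apart.

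A transformed liver line in culture divides continuously, and the state of its cultures is known to vary with density, nutrients and passage. Genes of DNA replication are transcribed mainly under the E2F factors as cells enter S phase, and genes of mitosis under the MuvB and FOXM1 complexes later in the cycle. Sterol and fatty acid synthesis genes answer to the SREBP factors, which are activated when membrane sterol is low. The amino acid response runs through ATF4 and the unfolded protein response through IRE1, PERK and ATF6 in the endoplasmic reticulum, and antioxidant and glutathione genes are targets of NRF2.

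Values were the deposited log2 expression values of 53617 probe sets, of which 16098 carried 1 gene symbol, for 14884 genes. Occasion 1 arrays had SDs across probe sets of 2.05 to 2.06 and medians of 5 to 5.02, occasion 2 arrays SDs of 2.02 to 2.06 and medians of 4.99 to 5.07, and occasion 3 arrays SDs of 1.95 to 2.02 and medians of 5.03 to 5.15. Arrays of occasion 3 thus had the narrower distributions, and the part of this in the differences below was not tested beyond the renormalised values given at the end. The labelled cell line showed its hepatocyte markers: the 10 named ones had a median level of 11.92, with 3 higher and 1 lower in occasion 1. Markers of endothelial cells, macrophages and lymphocytes had median levels of 4.68, 5.04 and 5.24, and among the 25 named genes of these 3 lists CD68 alone passed the test, higher in occasion 1. Of the 5 stellate cell or fibroblast markers named, LUM passed the test and DCN, RGS5, THY1 and DES did not.

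Between occasions 1 and 3, 3872 probe sets passed the test (7.22% of 53617, limma with the 4 oligonucleotide groups as a block, adjusted p under 0.05 after Benjamini-Hochberg). Of these, 2302 (4.29%) were higher and 1570 (2.93%) lower in occasion 1, and 887 differed by more than 2-fold. At 1 probe set per named gene, 1161 of 14884 genes (7.8%) were higher and 271 (1.82%) lower in occasion 1. Of the 10440 named genes with a mean level of at least 5, 1119 (10.7%) were higher and 194 (1.86%) lower. The 4 values of occasion 1 lay wholly above or wholly below the 4 of occasion 3 for 7860 probe sets (14.7%). In a test added after seeing the data, the occasion difference in the mimic arm minus that in the inhibitor arm passed for 0 probe sets with limma (4103 at an unadjusted p under 0.05). With common array medians in place of the deposited scale the calls were split into 2739 higher and 1054 lower, so that the balance of directions depends on the scaling.

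Genes of DNA replication and S phase were higher in occasion 1 almost as a whole. Of 51 list genes 29 had a named probe set, 27 of them were higher in occasion 1, 0 were lower, and the median difference was 1.08 on the log2 scale, against 0.02 over all named genes and 0.08 over those with a mean level of at least 5. The members that passed covered the replicative helicase (MCM2 to MCM7, CDC45 and the GINS subunits), its loading factors (CDT1, CDC6, MCM10), nucleotide supply (RRM1, RRM2, TYMS), the sliding clamp and flap processing (PCNA, FEN1) and the cyclins and factors of S phase entry (CCNE1, CCNE2, CCNA2, E2F1, E2F8). E2F2 (0.14) and DUT (0.07) did not pass. In RNA from whole cultures, a larger share of cells in cycle and more RNA per cycling cell cannot be told apart.

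PCNA, the clamp that holds DNA polymerases on the template, had log2 values of 9.81, 10.15, 10.07 and 10.25 in occasion 1 and of 7.87, 8.06, 8.81 and 8.45 in occasion 3 (mimic, mimic control, inhibitor and inhibitor control, the order used throughout). The groups did not overlap, which held for 3384 of the 3872 probe sets that passed. The mimic and mimic control arrays of occasion 3 were the lowest for PCNA. Its difference was 1.77 ± 0.15 (SE; limma adjusted p = 0.000804), a 3.41-fold higher level in occasion 1. RRM2, the small subunit of ribonucleotide reductase, which makes deoxynucleotides, had 7.76, 7.88, 8.16 and 8.12 in occasion 1 and 6.06, 6.46, 6.44 and 6.07 in occasion 3. This gave a difference of 1.72 ± 0.12 with the lowest p of the list (limma adjusted p = 0.00042). GINS2, a subunit of the replicative helicase, showed 7.26, 7.84, 7.69 and 7.8 in occasion 1 and 5.09, 5.39, 6.4 and 6.1 in occasion 3, a difference of 1.9 ± 0.19 (limma adjusted p = 0.00124). Within occasion 3 the inhibitor and inhibitor control arrays of GINS2 were the higher ones. MCM4, a helicase subunit, differed by 1.33 ± 0.12, and E2F8, a repressor of the E2F family that is itself made in S phase, by 1.59 ± 0.15.

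The RefSeq promoter windows (GRCh38.p14, 250 bases before to 50 bases after the first listed start of a gene) were searched on both strands for the E2F motif TTTCCCGC. It was present in 8 of the 24 replication genes with a window (33.3%), in 8 of the 22 of them that passed, and in 2.18% of 15842 protein-coding promoters. Windows of 30 bases around the match are shown for 3 members that passed, because these genes carry the replication result. Capitals mark the motif, here as its reverse complement on the gene's strand, and the matches began at positions -59, -31 and -39 from the start site.
PCNA, chr20:5126663-5126692, minus strand: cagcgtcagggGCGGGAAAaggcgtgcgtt
GINS2, chr16:85688967-85688996, minus strand: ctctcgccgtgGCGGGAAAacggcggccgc
TYMS, chr18:657603-657632, plus strand: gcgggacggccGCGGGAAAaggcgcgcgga
A match is a description of these letters and not a measured site.

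Genes of mitosis showed the same direction, with 42 of the 43 named members higher in occasion 1, 0 lower and a median difference of 0.84. CENPA (0.42) was the member that did not pass. Differences were largest for the centromere protein CENPI (1.76), the centriole kinase PLK4 (1.52), NUSAP1 (1.39), KIF20B (1.34) and KIF20A (1.33), and smallest among those that passed for HMMR (0.47), ECT2 (0.48) and KIF4A (0.49). CENPI had 8.61, 8.48, 8.46 and 8.33 in occasion 1 and 6.56, 6.77, 6.87 and 6.62 in occasion 3, with a difference of 1.76 ± 0.12 (limma adjusted p = 0.000415). KIF11, the kinesin that pushes spindle poles apart, had 9.23, 9.37, 9.03 and 9.32 in occasion 1 and 7.9, 8.29, 8.08 and 8 in occasion 3. No array of either gene overlapped the other occasion, which held for 3384 of the 3872 probe sets that passed. Both genes were named for their low p in the list, and 14.7% of all probe sets did not overlap. The proliferation marker MKI67 differed by 1.26, the kinase CDK1 by 1.19 and its activating cyclins CCNB1 and CCNB2 by 0.75 and 0.51.

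The cell cycle homology region motif TTTGAA was found in 26 of the 38 mitosis genes with a promoter window (68.4%), in 25 of the 37 that passed, and in 12.1% of all promoters. The windows of 3 genes are printed for members that passed, with the motif or its reverse complement in capitals.
KIF11, chr10:92593090-92593119, plus strand: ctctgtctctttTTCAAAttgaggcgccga
PLK1, chr16:23678848-23678877, plus strand: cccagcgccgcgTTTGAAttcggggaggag
CDC20, chr1:43358904-43358933, plus strand: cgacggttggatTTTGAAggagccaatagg
The matches began at positions -28, -29 and -65 from the start sites.

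**Figure D1:**
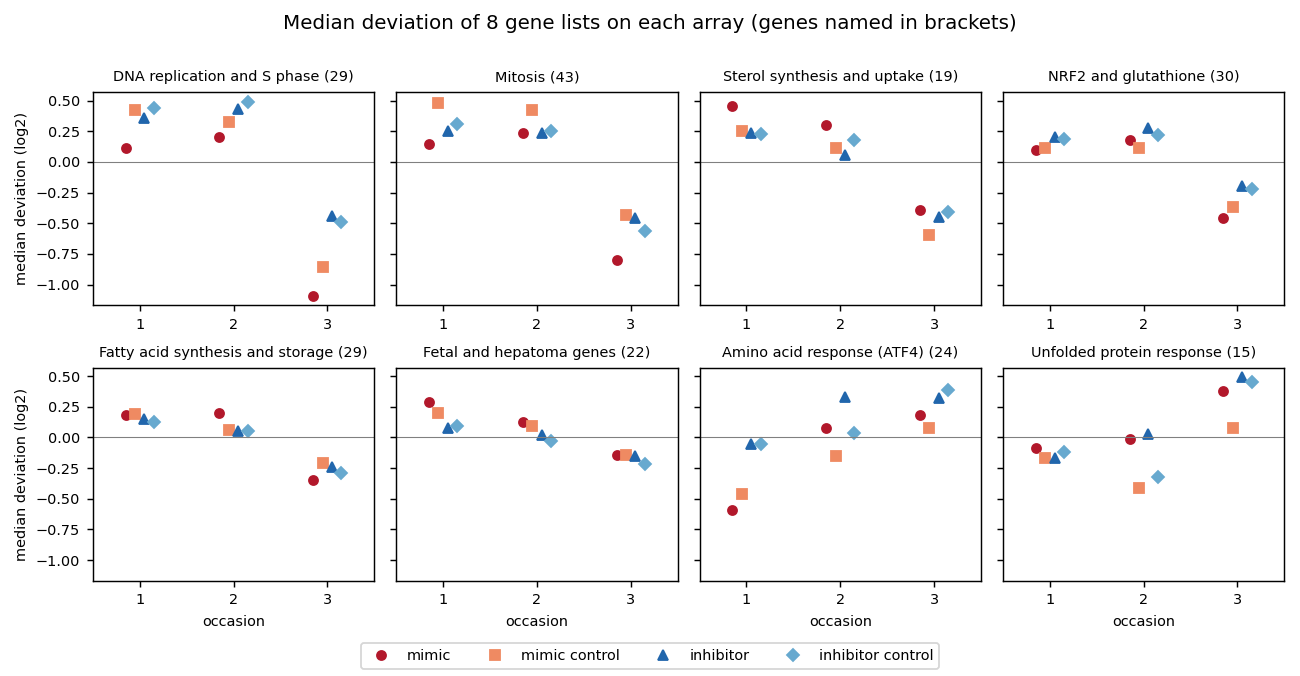
Median deviation of the named members of 8 gene lists on each of the 12 arrays, as the log2 value minus the gene's mean over the 12 arrays, by culture occasion (x axis) and oligonucleotide group (marker). The replication list lay between 0.11 and 0.44 in occasion 1, between 0.2 and 0.49 in occasion 2 and between -1.09 and -0.44 in occasion 3; the ATF4 and unfolded protein lists ran the other way.

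Lipid synthesis genes were also higher in occasion 1. In the sterol synthesis and uptake list 15 of 19 named genes were higher in occasion 1, 0 were lower, and the median difference was 0.78. They covered early and late steps of cholesterol synthesis, with ACAT2 (1.06), HMGCS1 (0.78), MVK (1.11), MVD (1.08) and IDI1 (1.12) before squalene and SQLE (0.61), MSMO1 (0.62), NSDHL (0.96), EBP (0.79), HSD17B7 (0.8), DHCR7 (0.48) and TM7SF2 (0.55) from squalene on. ACAT2, which condenses acetyl-CoA, had 11.03, 10.95, 10.97 and 10.9 in occasion 1 and 9.84, 9.89, 9.99 and 9.87 in occasion 3. The arrays of each occasion lay within a narrow band, and the difference was 1.06 ± 0.09 (limma adjusted p = 0.000804). INSIG1, which retains the SREBP complex in the endoplasmic reticulum, had 10.97, 10.44, 10.39 and 10.41 in occasion 1 and 9.99, 9.39, 9.37 and 9.32 in occasion 3. Its mimic array was the highest on both occasions. The factor gene SREBF2 (0.22), FDPS (0.32), PMVK (0.18) and MYLIP (0.35) did not pass. The sterol element letters TCACNCCAC were in 1 of 17 sterol promoters, in 0 of the 13 of genes that passed, and in 1.17% of all promoters.

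In fatty acid synthesis and storage 13 of 29 named genes were higher in occasion 1, 0 were lower, and the median difference was 0.37. ACSS2 and ACLY, the enzymes that supply cytosolic acetyl-CoA from acetate and from citrate, differed by 1.22 ± 0.1 and 0.84 ± 0.1, and the fatty acid synthase gene FASN by 0.79. ACSS2 had 8.84, 8.36, 8.7 and 8.62 in occasion 1 and 7.41, 7.22, 7.53 and 7.5 in occasion 3, with a limma adjusted p of 0.000586. Of the storage genes DGAT1, which makes triacylglycerol, differed by 1.01 and the lipid droplet protein gene CIDEC by 1.24, whereas PLIN2, the main droplet coat of hepatocytes, was level at 0. The desaturase genes SCD (0.23), FADS1 (0.21) and FADS2 (0.35) and the carboxylase genes ACACA (0.37) and ACACB (0.18) did not pass. Among 16 named genes of fatty acid oxidation and ketogenesis, ACSL5 (2.26), CREB3L3 (1.1), ACAA2 (0.65) and HADH (0.64) were higher in occasion 1 and ACSL1 (-0.8) was lower, so that both acyl-CoA synthetases of the list passed with opposite signs. The shares of this list were 25% higher and 6.25% lower, beside 7.8% and 1.82% over all named genes. ACSL5, an acyl-CoA synthetase of mitochondria and endoplasmic reticulum, had 7.89, 8.25, 8.6 and 8.64 in occasion 1 and 5.59, 6.05, 6.49 and 6.19 in occasion 3.

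Antioxidant and glutathione genes had 14 of 30 named members higher in occasion 1 and 0 lower, with a median of 0.37, and held the named genes with the largest positive differences. GSTA2, an alpha class glutathione transferase, had 10.51, 10.8, 10.27 and 10.33 in occasion 1 and 7.7, 8.22, 8.13 and 7.76 in occasion 3, a difference of 2.53 ± 0.14 (5.76-fold; limma adjusted p = 0.000135). Its neighbour GSTA1 had 9.58, 8.84, 8.98 and 9.04 in occasion 1 and 6.85, 6.6, 6.81 and 6.68 in occasion 3, a difference of 2.37 ± 0.11 (limma adjusted p = 9.18e-05). Lack of overlap was a condition for naming both genes, and their gaps were more than 1 log2 unit. The 2 genes are near-identical copies whose signal on the array could be shared. The peroxiredoxins PRDX1 (0.8), PRDX2 (0.78) and PRDX6 (0.57), catalase (CAT, 0.82), haem oxygenase HMOX1 (1.01) and the glutathione peroxidases GPX2 (0.99) and GPX3 (0.76) also passed. Members known as direct NRF2 targets that did not pass were TXNRD1 (0.3), SRXN1 (-0.02), GSR (0.12) and OSGIN1 (0.14), and KEAP1, which targets NRF2 for degradation, was higher (0.58). The antioxidant response letters TGACNNNGC were present in 6 of 25 member promoters, in 2 of the 11 of genes that passed (18.2%), and in 14.3% of all promoters.

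Stress genes of the amino acid response and of the endoplasmic reticulum were lower in occasion 1. In the ATF4 list 13 of 24 named members were lower and 0 higher, with a median difference of -0.54. They included aminoacyl-tRNA synthetases (WARS1 -1.22, AARS1 -0.67, IARS1 -0.57, EPRS1 -0.45), enzymes of amino acid supply (ASNS -1.14, CTH -1.05, SHMT2 -0.82) and regulators (DDIT3 -0.96, TRIB3 -0.81, DDIT4 -0.82, ATF3 -0.65), besides the secreted factors GDF15 (-0.99) and STC2 (-0.89). ATF4 itself (-0.09), PHGDH (0.01) and PSAT1 (-0.52) did not pass. Lists shared genes: GDF15 was also in the list of p53 targets, and DDIT4 and STC2 were also in the hypoxia list. In the p53 list 0 of 13 named members were higher and 2 (15.4%) lower. In the hypoxia list 1 of 18 (5.56%) was higher and 3 (16.7%) lower, beside 7.8% and 1.82% over all named genes. WARS1 had 6.7, 6.65, 7.17 and 7.18 in occasion 1 and 8, 8.03, 8.31 and 8.24 in occasion 3, a difference of -1.22 ± 0.12 (limma adjusted p = 0.00114). GDF15, a stress-induced hormone, had 8.17, 8.09, 8.54 and 8.31 in occasion 1 and 9.56, 9.04, 9.19 and 9.29 in occasion 3. Its groups did not overlap, which held for 3384 of the 3872 probe sets that passed. The difference of GDF15 was -0.99 ± 0.15 (limma adjusted p = 0.00625). DDIT4, an inhibitor of mTORC1, had 7.99, 7.74, 8.51 and 8.61 in occasion 1 and 9.19, 8.6, 8.99 and 9.33 in occasion 3. Its groups met at 8.6, where the mimic control array of occasion 3 lay just under the highest array of occasion 1.

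The C/EBP-ATF letters TGATGNAA were present in 7 of the 22 ATF4 list promoters (31.8%), in 4 of the 12 of genes that passed, and in 2.53% of all promoters. The windows of 3 members that passed, asparagine synthetase and a pair of tRNA synthetases, carry the motif in capitals, for the synthetases as its reverse complement.
ASNS, chr7:97872458-97872487, minus strand: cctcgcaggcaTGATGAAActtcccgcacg
AARS1, chr16:70289675-70289704, minus strand: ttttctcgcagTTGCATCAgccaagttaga
IARS1, chr9:92293692-92293721, minus strand: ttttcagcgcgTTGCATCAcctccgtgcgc
They began at positions -68, -187 and -13 from the start sites.

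In the unfolded protein response list 8 of 15 named members were lower in occasion 1 and 0 higher, with a median of -0.49. HYOU1, a large chaperone of the endoplasmic reticulum, had 9.19, 8.75, 9.04 and 8.97 in occasion 1 and 10.56, 9.67, 10.37 and 10.59 in occasion 3, a difference of -1.31 ± 0.13 (limma adjusted p = 0.00109). The mimic control array was the lowest of its occasion both times. SDF2L1, a chaperone partner, differed by -1.13 ± 0.14, the sensor gene ERN1 (IRE1) by -0.94, the degradation adaptor SEL1L by -0.8, MANF by -0.7 and calreticulin (CALR) by -0.61. XBP1, the factor downstream of IRE1, differed by -0.14 and EIF2AK3 (PERK) by -0.34, and neither passed. The half-site letters CCACG were in 11 of 15 member promoters and in 6 of the 8 of genes that passed, but also in 44% of all promoters. The promoter of HYOU1 held 2 matches, and the one nearer to the start, at position -79, is printed with its reverse complement in capitals.
HYOU1, chr11:119057267-119057296, minus strand: cggggcctgggaCGTGGtccaatgagtacg
The heat shock list, which answers to misfolded cytosolic protein, went the other way, with 4 of 12 named members higher in occasion 1: HSPA1A (1.09), HSPA1B (1.06), BAG3 (0.6) and HSPH1 (0.44). This was 33.3% of the heat shock list, beside 7.8% higher over all named genes. HSPA1A and HSPA1B are near-identical copies, and HSPD1 (-0.08) and HSPB1 (0.19) did not pass.

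**Figure D2:**
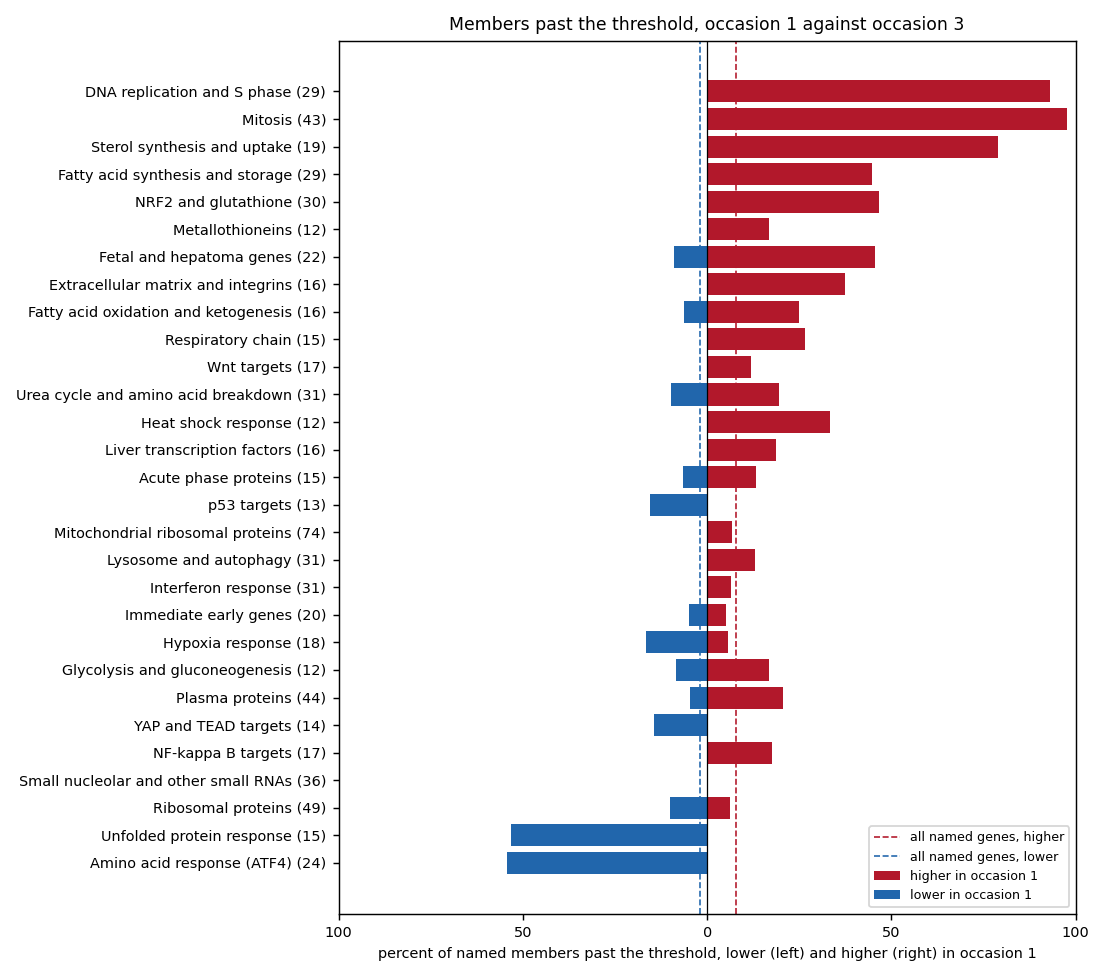
Share of the named members of each gene list (number named in brackets, lists with at least 10) that passed the test between occasions 1 and 3, to the left for members lower and to the right for members higher in occasion 1; dashed lines mark the shares over all named genes, 1.82% and 7.8%. Mitosis (97.7%) and DNA replication (93.1%) reached furthest to the right and the ATF4 list (54.2%) furthest to the left.

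Liver products moved gene by gene. Of 44 named plasma protein genes 9 (20.5%) were higher and 2 (4.55%) lower in occasion 1, with a median of 0.02. Over all named genes the shares were 7.8% and 1.82%. Albumin (ALB, 0.13), APOB (-0.02), FGA (0.03) and FGG (-0.04) did not pass. AFM, a vitamin E binding protein of plasma, had 7.22, 7.01, 7.21 and 7.18 in occasion 1 and 4.47, 5.1, 5.15 and 4.69 in occasion 3. Its arrays were level within occasion 1, and the difference was 2.3 ± 0.16 (4.93-fold; limma adjusted p = 0.00042). IGFBP1, the binding protein of insulin-like growth factors that insulin represses, had 6.29, 5.36, 6.95 and 6.58 in occasion 1 and 10.19, 9.14, 9.61 and 9.43 in occasion 3. It was lower in occasion 1 by 9.82-fold (-3.3 ± 0.25, limma adjusted p = 0.000556), the largest negative difference of a single-copy protein-coding gene among those named. KNG1 (1), CFI (0.9), APOC3 (0.87), HPX (0.85), HRG (0.81), APOA1 (0.66), TTR (0.52) and APOH (0.48) were higher, and AHSG (-0.52) was lower. Of the 15 named acute phase genes haptoglobin (HP, 1.55) and STAT3 (0.47) were higher (13.3%) and A2M (-0.66) lower (6.67%). HP shares sequence with HPR, which did not pass at 0.75.

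In the urea cycle and amino acid breakdown list 6 of 31 named members (19.4%) were higher and 3 (9.68%) lower. Over all named genes 7.8% were higher and 1.82% lower. OTC, which joins carbamoyl phosphate to ornithine, had 7.36, 7.49, 7.17 and 7.02 in occasion 1 and 4.69, 5.36, 5.58 and 4.84 in occasion 3, a difference of 2.14 ± 0.19 (limma adjusted p = 0.000864). The next enzymes ASS1 (-0.45) and ASL (0.09) did not pass. AGXT2 (1.18), BHMT (1.16), GLUD1 (1.04), BHMT2 (1.01) and KYNU (0.78) were higher, and TAT (-1.44), CTH (-1.05) and CBS (-0.46) lower, the last pair being the enzymes that turn homocysteine into cysteine. Of the 22 named fetal and hepatoma genes 10 were higher, among them TSPAN8 (0.87), MDK (0.85), EPCAM (0.83), PROM1 (0.7), PEG10 (0.67) and KRT19 (0.61), and S100P (-1.01) and DLK1 (-0.72) were lower. The shares of this list were 45.5% higher and 9.09% lower. AFP (0.26) and GPC3 (0.37) did not pass. Of the 6 named cholangiocyte markers 4 passed, all higher in occasion 1: EPCAM, KRT19, SOX9 (0.51) and SPP1 (0.79), while KRT7 (-0.24) and AQP1 (-0.19) did not.

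The matrix list had 6 of 16 members higher (37.5%) and 0 lower, beside 7.8% and 1.82% over all named genes. LUM, a collagen-binding proteoglycan, had 6.91, 7.69, 6.79 and 6.76 in occasion 1 and 4.5, 4.62, 5.26 and 4.8 in occasion 3, a difference of 2.24 ± 0.22 (limma adjusted p = 0.00109), and the protease inhibitors TIMP3 (1.1), TIMP1 (0.82) and TIMP2 (0.59), FBN1 (0.83) and SPP1 (0.79) also passed. Of the 17 named Wnt target genes 2 were higher (11.8%) and 0 lower, beside 7.8% higher over all named genes. The Wnt antagonist DKK1 differed by 1.7 ± 0.25, while AXIN2 (-0.05), LGR5 (0.36) and NOTUM (0.07) did not pass. Mitochondrial ribosomal proteins had 5 of 74 members higher (6.76%) and 0 lower, and interferon response genes 2 of 31 (6.45%) higher and 0 lower. Both shares were just under the 7.8% higher of all named genes. Of named genes with a mean level of at least 5, 10.7% were higher. All 74 mitochondrial ribosomal members and 20 of the 31 interferon genes had such a level. The count of higher mitochondrial ribosomal members was 12 with an intensity trend and a robust prior and 0 from the 8 arrays alone. Of the ribosomal proteins 3 of 49 (6.12%) were higher and 5 (10.2%) lower, beside 1.82% lower over all named genes. The count of lower members depended on the setting. It was 9 with an intensity trend and a robust prior and 2 with common array medians. It was 0 from the 8 arrays alone, 0 with the methods' t-test and 0 without the mimic and mimic control arrays of occasion 3. None of the 36 named small RNA genes passed in either direction with limma, and 2 were higher and 2 lower at an unadjusted p under 0.05. Immediate early genes had 1 higher (EGR1, 0.85) and 1 lower (ATF3) of 20 (5% each). Glycolysis and gluconeogenesis had 2 higher (GPI 0.41, LDHA 0.49; 16.7%) and 1 lower (HK2, -0.41; 8.33%) of 12. EGR1 and LDHA were near the threshold (limma adjusted p = 0.0491 and 0.0461). With the methods' t-test 0 members of either list passed. With an intensity trend and a robust prior 3 immediate early genes were higher and 2 lower, and 4 glycolysis genes higher and 2 lower.

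**Figure D3:**
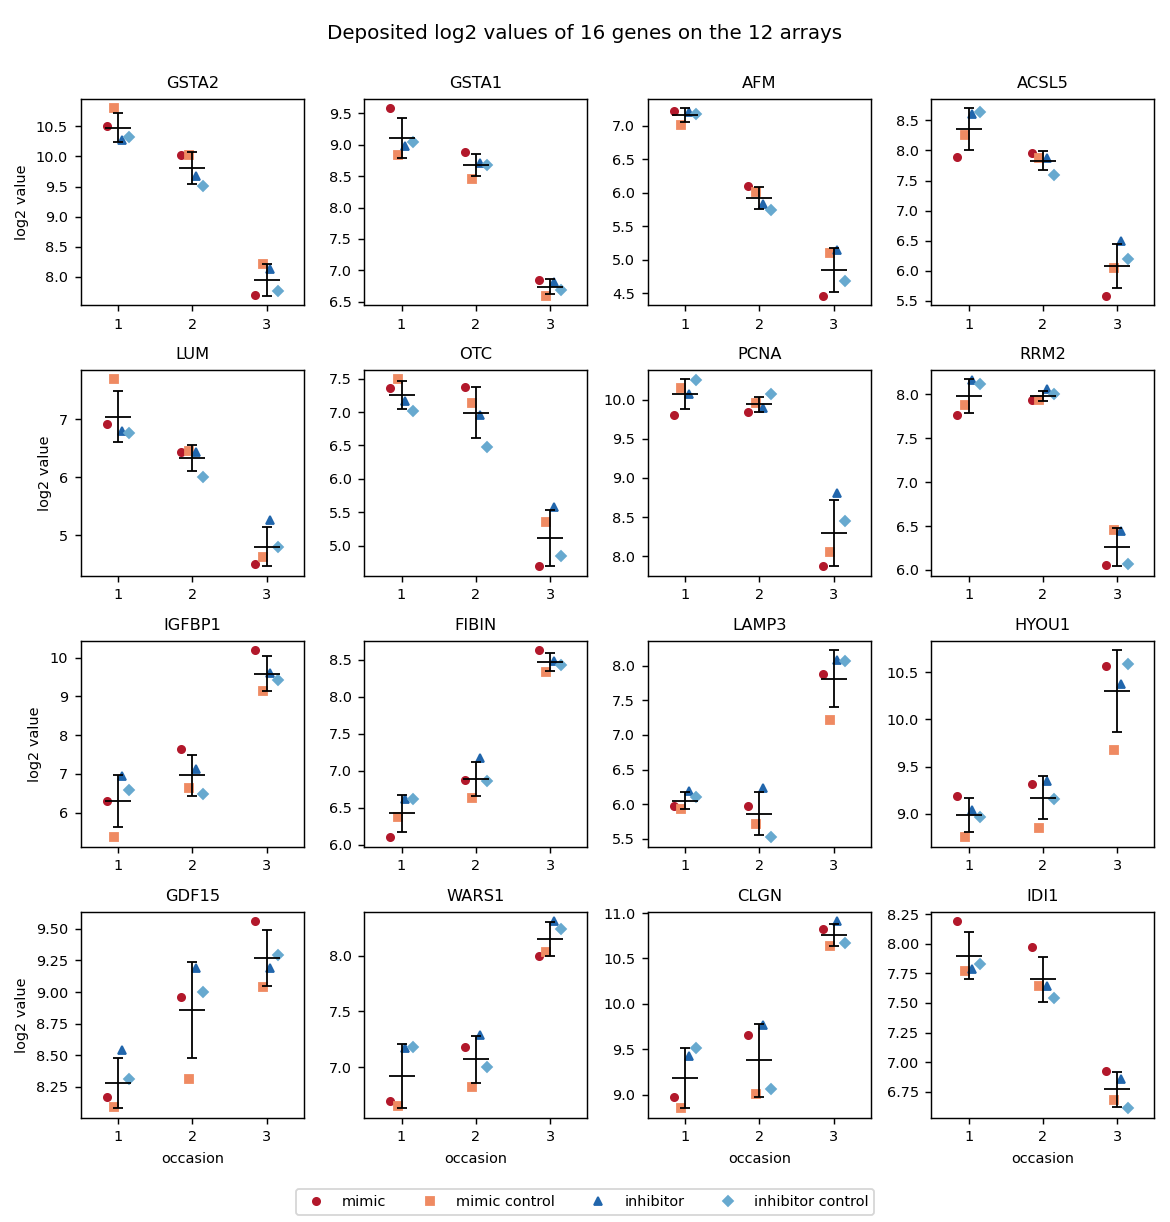
Deposited log2 values of 16 genes on the 12 arrays by culture occasion (x axis); markers give the oligonucleotide group, horizontal bars the mean of the 4 arrays and whiskers 1 SD. In each panel the arrays of occasion 1 lie clear of those of occasion 3, for example GSTA2 at 10.27 to 10.8 in occasion 1 and 7.7 to 8.22 in occasion 3, and IGFBP1 at 5.36 to 6.95 in occasion 1 and 9.14 to 10.19 in occasion 3. Lack of overlap was a condition for naming the genes with the largest differences, so their panels had to show it. The other panels are list members with low p, and 14.7% of all probe sets did not overlap.

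Beyond the lists, the named genes with the largest positive differences had varied roles. GUCY2C, the receptor of guanylin, had 8.73, 8.68, 8.33 and 8.16 in occasion 1 and 6.51, 6.53, 6.53 and 6.29 in occasion 3 (2.01 ± 0.14, limma adjusted p = 0.000426). SI, the brush border enzyme sucrase-isomaltase, had 7.96, 7.5, 5.98 and 6.13 in occasion 1 and 4.88, 5.22, 4.91 and 4.34 in occasion 3. The mimic and mimic control arrays of SI were the high ones of occasion 1, and the difference was 2.06 ± 0.26 (limma adjusted p = 0.0031). HHLA2, a member of the B7 family of T cell ligands, differed by 2.22 ± 0.17, the lysosomal protease CTSV by 2.18 ± 0.16, the kinase gene NRK by 1.93 ± 0.18, the chaperone ERP27 by 1.92 ± 0.19 and the spindle protein SPAG5 by 1.87 ± 0.15. CEACAM6, an adhesion molecule, had 5.77, 6.67, 6.61 and 6.45 in occasion 1 and 4.73, 3.03, 4.94 and 4 in occasion 3, with the widest spread within occasion 3 of these 15 genes (SD 0.87). Its call (2.2 ± 0.37, limma adjusted p = 0.00991) was lost without the mimic and mimic control arrays of occasion 3 (adjusted p = 0.085), as were those of 83 of the 126 named genes that had passed, CEACAM6 included.

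Among the named genes with the largest negative differences, single-copy genes and multicopy families stood side by side. FIBIN, a secreted protein gene, had 6.1, 6.38, 6.62 and 6.62 in occasion 1 and 8.63, 8.34, 8.49 and 8.43 in occasion 3 (-2.04 ± 0.14, limma adjusted p = 0.000415). LAMP3, a lysosomal membrane protein, had 5.98, 5.93, 6.19 and 6.11 in occasion 1 and 7.88, 7.22, 8.08 and 8.07 in occasion 3 (-1.76 ± 0.17, limma adjusted p = 0.000985). CLGN, a calnexin-like chaperone of the endoplasmic reticulum, differed by -1.57 ± 0.17 and the chloride channel gene BEST1 by -1.51 ± 0.13. Lack of overlap was a condition for naming the genes of this set. The deubiquitinase family USP17L lies in tandem repeats, and its members cannot be told apart with confidence: USP17L12 and the pseudogene USP17L9P had identical values on all arrays. USP17L15 had 4.12, 5.77, 4 and 3.52 in occasion 1 and 8.77, 7.47, 7.08 and 8.11 in occasion 3. Its difference was the largest in size of the named genes (-3.5 ± 0.64) but with a wide error (limma adjusted p = 0.015), and the call was lost without the mimic array of occasion 1 (0.0607) or of occasion 3 (0.0539). The cancer-testis genes GAGE12C (-2.22 ± 0.45) and GAGE2A (-1.51 ± 0.2), the microRNA genes MIR548I1, MIR548I2 and MIR4509-1, the noncoding LINC00965 (-3.25 ± 0.57) and the ribosomal protein gene RPL39 (-1.45 ± 0.28) completed this set, and most of them also belong to families of near-identical copies.

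Occasion 2 lay nearer to occasion 1. Of the 3872 probe sets that differed between occasions 1 and 3, the mean of occasion 2 was beyond that of occasion 1 for 662, between the midpoint and occasion 1 for 2507, between the midpoint and occasion 3 for 671 and beyond occasion 3 for 32, so that 81.8% were nearer to occasion 1. On a scale on which occasion 1 is 1 and occasion 3 is 0, the median position was 0.748. Between occasions 1 and 2, 0 probe sets passed with limma (0%, 4798 at an unadjusted p under 0.05, lowest adjusted p 0.301), and the plain t-test of the study's methods also gave 0. Between occasions 2 and 3, 1996 passed (3.72%), 1322 (2.47%) higher and 674 (1.26%) lower in occasion 2. The 3 comparisons share arrays, so these counts are not independent of each other. In a test added after seeing the data, occasion 2 differed from the midpoint of the others for 1 probe set (limma, 6152 at an unadjusted p under 0.05), so that the position of a single gene was rarely resolved.

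Lists differed in where occasion 2 stood. For DNA replication the median difference was 0 between occasions 1 and 2 and 1.11 between occasions 2 and 3, with 26 of 29 members higher in occasion 2 than in occasion 3. Mitosis had medians of 0.03 and 0.86, the sterol list 0.11 and 0.5, and the unfolded protein list -0.09 and -0.52, with 7 of 15 members lower in occasion 2 than in occasion 3. The ATF4 list was divided more evenly, with medians of -0.24 and -0.18, 0 members that passed between occasions 1 and 2 and 2 between occasions 2 and 3. RRM2 had a mean of 7.98 in occasions 1 and 2 alike and of 6.26 in occasion 3, and AFM had 7.16, 5.92 and 4.85 in occasions 1, 2 and 3. DDIT4 had 8.21, 9.09 and 9.03 and HK2 had 7.66, 8.14 and 8.06, so that for both the occasion 2 mean lay near that of occasion 3. Neither gene passed between occasions 1 and 2 (limma adjusted p = 0.301 and 0.349). The difference between lists in the position of occasion 2 was not tested.

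**Figure D4:**
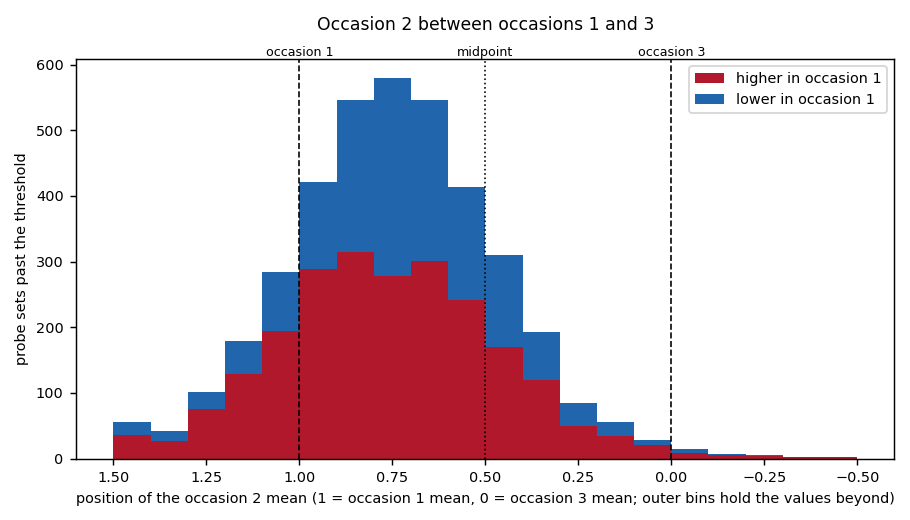
Position of the occasion 2 mean for the 3872 probe sets that passed between occasions 1 and 3, on a scale where 1 is the mean of occasion 1 and 0 that of occasion 3; colours give the direction, and the outer bins hold all values beyond them. The median is 0.748, and 81.8% lie on the occasion 1 side of the midpoint.

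The differences varied with the level of expression. In probe sets with a mean log2 value of 3 to 4 the median difference was -0.134, and in those of 7 to 8 it was 0.13. Above 10 it was -0.028. Those that passed higher in occasion 1 made up 0.545% of probe sets at 3 to 4 and 13.3% at 7 to 8, while those lower in occasion 1 made up 2.81% and 3.59%. By annotation, 9.2% of protein-coding probe sets were higher and 1.89% lower in occasion 1, 1.5% and 2.19% of those for long noncoding RNAs, and 1.46% and 2.91% of those for microRNA genes. The replication list had a median level of 7.47 and a median difference of 1.08, and the fatty acid synthesis list 7.42 and 0.37. Both levels fall in the bin of 7 to 8, with its median of 0.13. The mitosis list had 8.13 and 0.84, in the bin of 8 to 9 with a median of 0.095. The part of the level in the list differences was not tested.

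**Figure D5:**
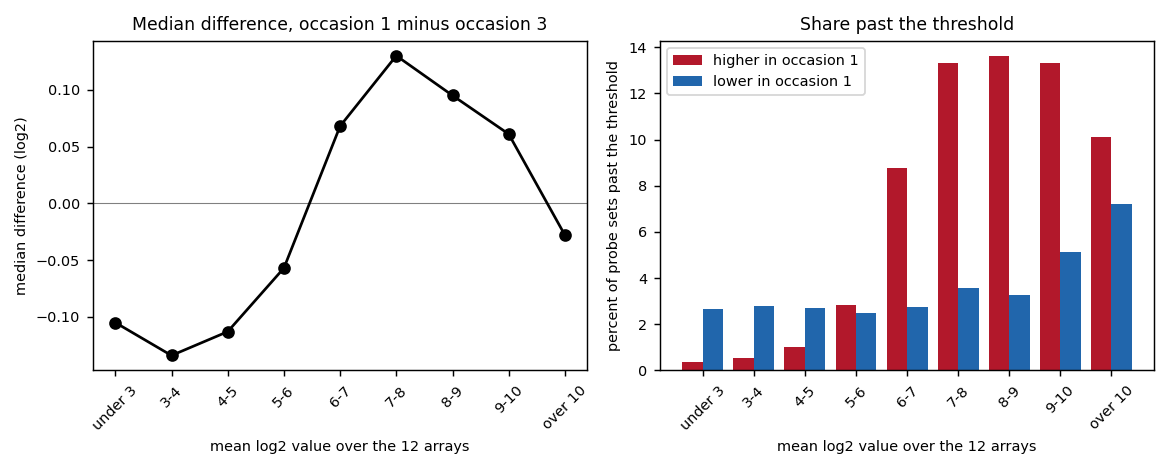
Median difference of occasion 1 minus occasion 3 on the log2 scale (left) and percent of probe sets that passed in each direction (right), by bins of the mean log2 value over the 12 arrays. The median runs between -0.134 in the bin of 3 to 4 and 0.13 in the bin of 7 to 8, and the share higher in occasion 1 reaches 13.6% in the bin of 8 to 9.

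The list medians kept their direction under a renewed quantile normalization, where they were 1 for replication, 0.74 for mitosis, 0.76 for sterol synthesis, 0.26 for fatty acid synthesis, 0.38 for the NRF2 list, -0.55 for the ATF4 list and -0.53 for the unfolded protein list. Within the 6 control arrays alone the medians were 0.99, 0.88, 0.75, 0.34, 0.39, -0.53 and -0.45 in that order, and within the 6 mimic and inhibitor arrays 0.92, 0.87, 0.73, 0.41, 0.42, -0.66 and -0.65, although no probe set passed in fits of that size. Without the mimic and mimic control arrays of occasion 3, which had the lowest SDs, 342 probe sets passed, with 14 replication, 15 mitosis, 7 sterol, 2 fatty acid, 3 NRF2, 1 ATF4 and 1 unfolded protein genes among them, and the medians were 0.84, 0.75, 0.6, 0.41, 0.38, -0.43 and -0.63. Fewer members passed in other settings. With the methods' t-test they were 8 replication, 16 mitosis, 8 sterol, 5 fatty acid, 5 NRF2, 3 ATF4 and 4 unfolded protein genes. From the 8 arrays alone they were 21, 28, 10, 10, 8, 9 and 6 in that order. With 1 array left out in turn, between 1213 and 3718 probe sets passed.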

How the data were processed

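Values were the log2 expression values that the authors deposited for 12 HuGene-2_0-st arrays, made per the labels with the Affymetrix Expression Console; the values were used as deposited, and for background correction, normalization and genome build the method was not given in the sources used here. Scanner files were not used here. The median standard error of a difference was 0.149 on the log2 scale. This error reflects the spread between parallel transfections of the same culture. Precision is limited by the number of cultures. The spread between cultures could not be estimated, because cultures were not replicated within an occasion. Samples were grouped by GEO's labels, the repeat number in the title giving the culture occasion.

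For each of 53617 probe sets a linear model with occasion and oligonucleotide group was fitted in limma 3.58.1 (R 4.3.3; 6 residual and 3.41 prior degrees of freedom), two-sided, with p-values adjusted by Benjamini-Hochberg across the whole table and a threshold of 0.05. The script was tested on simulated data. Gene symbols came from the platform annotation (16098 probe sets with 1 symbol, 0 with several, 37519 without a name here). For gene lists, the probe set with the highest mean stood for a gene, and members without a named probe set were left out; 1 list, of histone genes, had none. Lists were described by counts and medians, with no test of the list. The gene lists, the members and the promoter motifs were chosen with earlier results of these data known.

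Genes were named by rule: up to 15 per direction with the largest difference among those past the threshold, without overlap of the 4 arrays of each occasion and of the same sign in all 4 groups; 4 per list and 5 per direction for the other pairs by p. Other list members are given with their difference and were chosen after their values were seen. Promoter sequences came from RefSeq (GRCh38.p14), 1 window per protein-coding gene. Alternatives covered normalization, array subsets, filters, weights, prior, test, threshold and each array left out.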

Additional observations from a re-analysis of the deposited data

Results flagged for a closer look

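Of 486 sets of 4 arrays, 1 for each named gene and occasion, 27 held an array whose gap to its nearest neighbour was over 0.829 of the range of the 4, a share that chance gives in about 1 of 20 sets. The pattern that recurred was KLF2, a zinc finger factor of the immediate early list: its mimic array stood above the other 3 on every occasion, at 11.41 in occasion 1 (others 8.94 to 9.06), 10.92 in occasion 2 (others 9.2 to 9.38) and 10.44 in occasion 3 (others 8.3 to 8.66), and its difference between occasions 1 and 3 did not pass. INSIG1 behaved alike in the mimic arrays of occasion 1 (10.97, others 10.39 to 10.44) and occasion 3 (9.99, others 9.32 to 9.39). In occasion 1 the inhibitor control array stood apart for SCARNA1 at 5.22 (others 5.54 to 5.59). The mimic array of occasion 1 was set off for BAX at 6.66 (others 7.1 to 7.18), STC2 at 7.44 (others 8.46 to 8.63), IDI1 at 8.19 (others 7.77 to 7.83), MRPS25 at 8.17 (others 8.36 to 8.38) and CTSC at 8.06 (others 8.78 to 8.9). In occasion 1 the mimic control array stood apart for LUM at 7.69 (others 6.76 to 6.91), ATF3 at 6.32 (others 6.61 to 6.63), HK2 at 7.51 (others 7.7 to 7.73), MANF at 6.18 (others 6.76 to 6.87) and RNF43 at 7.37 (others 7.06 to 7.09). The inhibitor array of occasion 2 was set off for CA12 at 6.54 (others 6.74 to 6.77) and CD2 at 5.04 (others 5.55 to 5.64). In occasion 2 the inhibitor control array stood apart for LUM at 6 (others 6.43 to 6.46) and IFIH1 at 4.28 (others 4.87 to 4.97). The mimic control array of occasion 2 was set off for HP at 8.33 (others 7.4 to 7.56). In occasion 3 the inhibitor array stood apart for CXCL10 at 5.53 (others 5.1 to 5.15). The inhibitor control array of occasion 3 was set off for GUCY2C at 6.29 (others 6.51 to 6.53). In occasion 3 the mimic array stood apart for BAG3 at 5.37 (others 5.8 to 5.87), COX7B at 5.99 (others 6.45 to 6.53) and COX5A at 9.58 (others 10.1 to 10.19). The mimic control array of occasion 3 was set off for FMO5 at 6.2 (others 6.77 to 6.85). The occasion difference in the mimic arm minus that in the inhibitor arm passed limma for 0 probe sets, with 4103 at an unadjusted p under 0.05.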

How the results depend on the processing

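No paired analysis was possible because the replicate number is itself the culture occasion that was compared. The fit instead matched the arrays of the occasions by oligonucleotide group, and without that block 3591 probe sets passed. Between occasions 1 and 3, 3872 probe sets passed, and the count was 1435 from the 8 arrays alone, 0 from the control arrays alone, 0 from the mimic and inhibitor arrays alone (7419 and 7428 at an unadjusted p under 0.05), 342 without the mimic and mimic control arrays of occasion 3, 850 with the methods' t-test after Benjamini-Hochberg (10376 unadjusted) and 937 at an adjusted p under 0.01. Between occasions 2 and 3, where 1996 passed, these counts were 69, 0, 0, 125, 222 and 492, and 3624 passed among probe sets with a mean of at least 5 and 3200 with an intensity trend and a robust prior; those last settings each gave 1 between occasions 1 and 2, where every other setting gave 0. The fits on fewer arrays have fewer residual degrees of freedom. With 1 array left out, counts were 1213 to 3718 between occasions 1 and 3, 0 to 0 between occasions 1 and 2 and 668 to 1480 between occasions 2 and 3. Arrays whose omission moved the count of occasions 1 and 3 by over 1.5 times were those of occasion 1 (mimic 1213, inhibitor control 1398, mimic control 1651, inhibitor 2354) and the mimic (1700) and mimic control (1705) arrays of occasion 3. For occasions 2 and 3 they were those of occasion 2 (mimic control 668, mimic 670, inhibitor 752, inhibitor control 1289) and of occasion 3 (mimic control 851, mimic 923, inhibitor control 1158, inhibitor 1234). The cause was not tested. Of 126 named genes that passed, 0 changed direction under any alternative, all 126 lost their call in the fits of 6 arrays, and 83 did so without the mimic and mimic control arrays of occasion 3. AHR, which did not pass at -0.06, was 0.01 with common medians, 0.04 without the mimic and mimic control arrays of occasion 3, and -0.15 to 0.03 with 1 array left out (0.01 and 0.03 without the mimic control array of occasion 1 or 3). Of 37 lists 8 had a median of the other sign under some setting, none of them among the 8 lists plotted by array. Renormalised values left 80 to 82.4% of the called probe sets nearer to occasion 1. All calls rest on 1 culture per occasion.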

Other observations

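Genes outside the lists were looked through after their values were seen, and those named here passed the test between occasions 1 and 3 (limma, adjusted p under 0.05). Higher in occasion 1 were the oxidase gene NOX1 (1.99), the ferroxidase gene HEPH (1.84), the apolipoprotein gene APOA4 (1.77), the lactase gene LCT (1.7), the endocytic receptor genes LRP2 (1.68) and CUBN (1.36), the aminopeptidase gene ANPEP (1.5), the aspartic protease gene CTSE (1.86) and the hepatic esterase gene AADAC (1.79).

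Lower in occasion 1 were SEC11C (-1.29) and SERP1 (-1.02), which act at the endoplasmic reticulum in signal peptide cleavage and in protecting new membrane proteins, the translation repressor EIF4EBP1 (-0.92), GTPBP2 (-0.93), the seryl-tRNA synthetase SARS1 (-0.73) and MTHFD1L (-0.69), a mitochondrial folate enzyme. The epidermal growth factor family ligands BTC (-1.09) and EREG (-1.01) and the NKG2D ligand ULBP1 (-1.37) were lower as well.

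Some genes had their extreme in occasion 2. DUSP6, a phosphatase of ERK, averaged 8.8 ± 0.47 in occasion 1, 9.67 ± 0.18 in occasion 2 and 8.44 ± 0.1 in occasion 3 (SD, n = 4 each), and passed between occasions 2 and 3 (limma adjusted p = 0.00464) but not between occasions 1 and 2 (0.319). NAGS, which makes the activator of the urea cycle, averaged 7.26 ± 0.49, 8.07 ± 0.36 and 7.07 ± 0.36 in occasions 1, 2 and 3. It passed between occasions 2 and 3 (limma adjusted p = 0.0091) but not between occasions 1 and 2 (0.334). Against the midpoint of occasions 1 and 3, occasion 2 passed for neither DUSP6 nor NAGS (limma adjusted p = 0.0713 and 0.0737).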
